A study of Mus musculus with 4 samples.

Results

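The genes of MHC class I antigen presentation were examined in testis cells sorted for tdTOMATO, the fluorescent reporter of the Eomes locus. The 8 genes H2-K1, H2-D1, B2m, Tap1, Tap2, Psmb8, Psmb9 and Psmb10 were chosen by name, with earlier results of these data known, so their values between genotypes and between cells with and without the leukocyte gene Ptprc are given as a description. Of the 8 genes, 7 had a row among the 23344 gene symbols that both count tables hold. Tap2 was not analysed here. The cells came from 4 wk old Plzf +/+ and Plzf lu/lu mice, where lu (luxoid) is a mutation of Plzf (Zbtb16), a transcription factor of undifferentiated spermatogonia. All mice carried the Eomes-iCreERt2-tdTomato knock-in allele, so both genotypes carried the inducible Cre as well as the reporter, and any cell in which the Eomes locus was active could enter the sort. Plzf +/+ cells filled plates 1 and 2 (317 and 303 cells) and most of plate 4 (277 cells), and Plzf lu/lu cells filled plate 3 (314 cells) and 38 wells of plate 4. This gave 5 libraries, 1249 cells and 9370123 unique molecular identifiers (UMIs, each marking 1 captured RNA molecule).

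The plates other than plate 4 held 1 genotype each, so that there a genotype cannot be told apart from its plate. The mutated gene itself, Zbtb16, had 164, 126 and 141 UMIs in Plzf +/+ cells and 46 and 3 in Plzf lu/lu cells. No animals are named in the labels, so a p-value measures only the spread between these libraries, which may be technical. The small Plzf lu/lu share of plate 4 held 254514 UMIs, against 2005033 to 2608702 in the other 4, and its values are the least precise. Median depth was 5061 to 6364.5 UMIs per cell. Dazl, which marks germ cells, had a UMI in 86.8% to 95.6% of the cells of each library, as the germ cell label asks. Ptprc, which encodes the leukocyte antigen CD45, had a UMI in 21 cells (2, 8 and 3 of the Plzf +/+ and 7 and 1 of the lu/lu libraries). Levels are CPM, the UMIs of a gene per 1000000 UMIs of the library. They come from 3′ ends, with each molecule counted once and no scaling by transcript length, and their 95% intervals are exact Poisson intervals that cover counting error only. Cells with at least 3 Sertoli cell genes numbered 16, 36 and 21 in the Plzf +/+ with 53 and 6 for Plzf lu/lu, and the summed level of these genes was 177, 267 and 257 against 994 and 538 CPM.

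MHC class I molecules show peptides of the cell's own proteins to cytotoxic T cells and are also read by NK cells. H2-K1 and H2-D1 encode heavy chains, B2m encodes the light chain beta-2 microglobulin, and Tap1 and Tap2 form the transporter that brings peptides into the endoplasmic reticulum. Psmb8, Psmb9 and Psmb10 encode the catalytic subunits of the immunoproteasome, which take the places of Psmb5, Psmb6 and Psmb7 of the constitutive proteasome and change the peptides it makes. The genes are inducible by interferon gamma, and leukocytes express them at high level while germ cells are known for little surface class I. In the mouse genome (RefSeq, GRCm38.p6) 6 of the 8 genes lie in the MHC region of chromosome 17, in the order H2-K1 (chr17:33996012-34000619), Psmb9 (chr17:34182030-34187330), Tap1 (chr17:34187556-34197225), Psmb8 (chr17:34198195-34201454), Tap2 (chr17:34204479-34216321) and H2-D1 (chr17:35263094-35267497). B2m lies at chr2:122147687-122153082 and Psmb10 at chr8:105935728-105938392.

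Promoter windows of RefSeq (GRCm38.p6, 250 bases before to 50 after the annotated start) were found for 7 of the 8 genes, not for Tap2. The windows of the heavy and light chain genes are shown as those of the class I molecule itself, and that of Psmb10 as the gene with the most UMIs. Capitals mark matches on either strand to the letters AANNGAAA (the core of an interferon response element), GGGNNTTCC (an NF-kB site), CCAAT and TATAAA, and no match overlapped another.
H2-K1 (chr17:34000298-34000597, minus strand): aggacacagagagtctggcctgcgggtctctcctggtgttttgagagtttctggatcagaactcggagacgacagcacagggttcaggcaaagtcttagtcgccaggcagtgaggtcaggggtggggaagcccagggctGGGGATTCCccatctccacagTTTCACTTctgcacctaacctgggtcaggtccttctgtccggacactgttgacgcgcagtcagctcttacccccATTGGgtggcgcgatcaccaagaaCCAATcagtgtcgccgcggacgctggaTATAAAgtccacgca
H2-D1 (chr17:35262844-35263143, plus strand): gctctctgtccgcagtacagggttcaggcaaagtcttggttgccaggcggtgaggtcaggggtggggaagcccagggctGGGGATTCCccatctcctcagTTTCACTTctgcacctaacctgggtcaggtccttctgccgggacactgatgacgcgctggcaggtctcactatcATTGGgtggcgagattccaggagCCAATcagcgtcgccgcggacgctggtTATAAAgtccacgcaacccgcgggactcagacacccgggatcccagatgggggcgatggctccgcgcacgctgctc
B2m (chr2:122147437-122147736, plus strand): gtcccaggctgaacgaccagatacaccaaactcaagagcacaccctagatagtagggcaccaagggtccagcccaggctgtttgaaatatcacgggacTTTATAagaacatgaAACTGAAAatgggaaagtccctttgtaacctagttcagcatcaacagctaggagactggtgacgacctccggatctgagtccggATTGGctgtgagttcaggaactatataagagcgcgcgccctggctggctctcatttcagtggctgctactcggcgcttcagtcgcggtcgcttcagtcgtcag
Psmb10 (chr8:105938343-105938642, minus strand): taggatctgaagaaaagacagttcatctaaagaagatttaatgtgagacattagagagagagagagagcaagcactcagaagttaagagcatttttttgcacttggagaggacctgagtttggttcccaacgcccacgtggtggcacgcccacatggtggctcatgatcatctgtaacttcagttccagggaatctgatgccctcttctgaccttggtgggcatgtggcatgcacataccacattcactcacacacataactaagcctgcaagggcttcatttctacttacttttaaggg
The H2-K1 and H2-D1 windows both held the NF-kB letters (bases 140 to 148 and 80 to 88, counted from the 5′ end of the window), then the interferon element (161 to 168 and 101 to 108), a pair of CCAAT matches and TATAAA. In H2-K1 TATAAA (286 to 291) lay after the annotated start, and in H2-D1 (225 to 230) before it. Another H2-K1 window (chr17:34000284-34000583), not shown, held the same matches, also with TATAAA (272 to 277) after its start. Shifted by 60 bases against each other, the H2-K1 and H2-D1 windows shown were identical at 176 of 240 bases (73.3%), with a longest shared run of 47 bases. The B2m window held the interferon letters (114 to 121) with 1 CCAAT and 1 TATAAA match, and the Psmb10 window held none of the 4. Of the windows not shown, that of Psmb8 held TATAAA only and those of Tap1 and Psmb9 held CCAAT only. Among all 32851 windows, 23.9% held the interferon letters, 5.82% the NF-kB letters, 37.4% CCAAT and 13.6% TATAAA. These matches describe letters in the windows and are not shown to be bound. H2-K1 and H2-D1 are near-identical in parts of their transcripts, as are the other class I heavy chain genes, so reads could be shared or lost between them and the split of UMIs between these symbols is uncertain.

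Of the 7 genes, Psmb10 had the most UMIs (1111, in 524 of the 1249 cells, 42.0%) and B2m came next (784 UMIs in 429 cells, 34.3%). H2-K1 had 379 UMIs in 151 cells (12.1%) and H2-D1 had 247 UMIs in 135 cells (10.8%). Psmb9 followed with 112 UMIs in 91 cells (7.29%), Psmb8 with 50 UMIs in 29 cells (2.32%) and Tap1 with 6 UMIs in 6 cells (0.480%). The order of these counts reflects captured molecules, not transcripts per length. UMIs of Psmb10 were spread over many cells with at most 12 in any cell, while H2-K1 reached 16, H2-D1 17 and B2m 46 UMIs in a cell.

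The class I UMIs fell unevenly between cells with and without Ptprc. The 21 cells with a Ptprc UMI held 1.51% of all UMIs, but 36.7% of the H2-K1, 34.0% of the H2-D1, 23.3% of the B2m and 60.0% of the Psmb8 UMIs, as well as 3 of the 6 Tap1 UMIs. They held 0.893% of the Psmb9 UMIs (1 of 112) and 1.17% of the Psmb10 UMIs (13 of 1111). H2-K1 stood at 982 CPM (interval 826 to 1160) with Ptprc and 26.0 (22.8 to 29.5) without. H2-D1 stood at 594 (473 to 735) and 17.7 (15.1 to 20.6), and B2m at 1293 (1113 to 1495) and 65.1 (60.0 to 70.5). These pooled levels differed by genotype: with Ptprc, H2-K1 stood at 2174 (1765 to 2650) in 13 Plzf +/+ cells and 425 (305 to 577) in 8 Plzf lu/lu cells, H2-D1 at 1176 and 321, and B2m at 2219 and 861. The median depth of these cells was 1477 and 10756 UMIs, and 1 of the 13 and 5 of the 8 had Dazl UMIs. Among the cells without Dazl, 12 of Plzf +/+ and 3 of lu/lu, the median summed level of the 3 genes was 12359 and 11230 CPM. With and without Ptprc, the pooled intervals of these 3 genes lay far apart, and Psmb8 showed the same gap, with 212 (143 to 303) against 2.17 (1.32 to 3.35). Psmb9 and Psmb10 did not, with 7.07 (0.179 to 39.4) against 12.0 (9.89 to 14.5) and 91.9 (48.9 to 157) against 119 (112 to 126). The 3 immunoproteasome genes thus did not go together in the pooled split. Psmb10 had UMIs in 4 of the 6 Ptprc cells with Dazl, up to 7, and in 2 of the 15 without, at most 1. The pooled levels mix both kinds of cell. The constitutive genes Psmb5 (254, 178 to 352, against 370, 358 to 383) and Psmb6 (502, 392 to 633, against 670, 654 to 687) were lower with Ptprc. Psmb7 (163, 103 to 244, against 222, 212 to 232) had overlapping intervals.

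**Figure D1:**
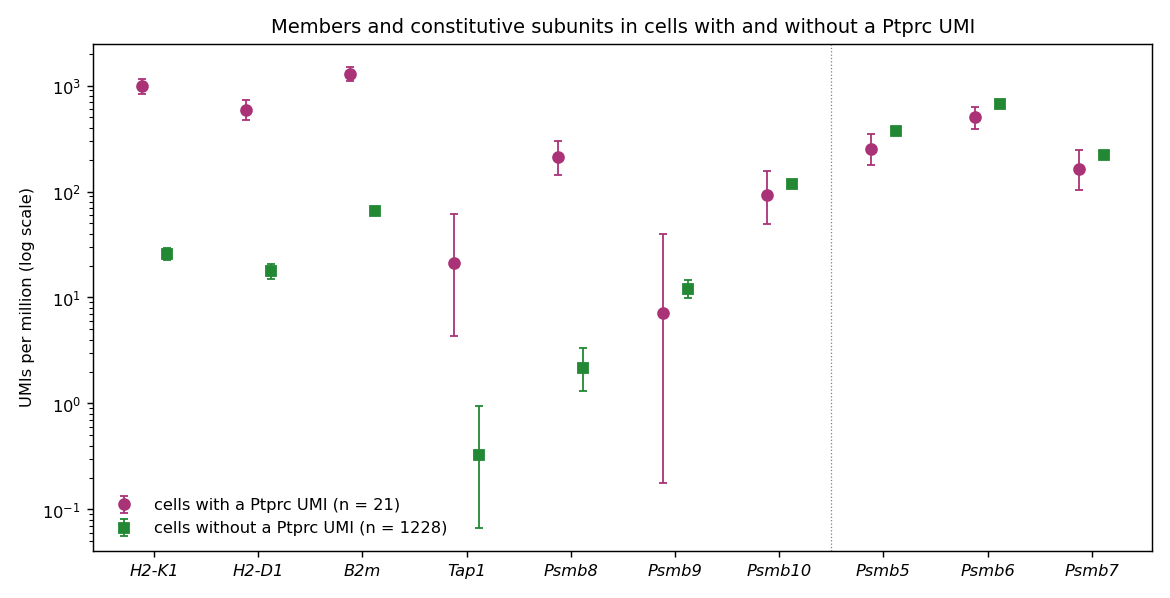
CPM (UMIs per 1000000, log scale) of the 7 genes and the 3 constitutive catalytic subunits in 21 cells with a Ptprc UMI (circles) and 1228 cells without (squares). Bars are exact 95% Poisson intervals over the summed UMIs; H2-K1, H2-D1, B2m, Tap1 and Psmb8 lie higher with Ptprc with no overlap of intervals, while those of Psmb9 and Psmb10 overlap.

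Pooled over genotypes, cells with Ptprc had a median of 1908 UMIs against 5959.5, although those of Plzf lu/lu had the higher median given above. After each cell was thinned to 1000 UMIs, a UMI of H2-K1 was found in 76.2% of the cells with Ptprc and 2.28% of those without, of H2-D1 in 66.7% and 2.12%, of B2m in 76.2% and 6.28%, and of Psmb8 in 33.3% and 0.0815%. For Psmb10 the shares were 14.3% (exact binomial interval 3.05% to 36.3%) and 11.4% (9.68% to 13.3%), which overlapped. Unthinned, H2-K1 had a UMI in 85.7% and 10.8% of the cells and Psmb10 in 28.6% and 42.2%.

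The 21 cells differed in their other genes. Of these, 15 cells without a Dazl UMI had a median of 1781 UMIs and each carried UMIs of 2 to 8 of 11 T and NK cell genes such as Cd3e, Nkg7 and Gzma. The summed UMIs of H2-K1, H2-D1 and B2m in these cells ran from 11 to 33 with a median of 20, each of the 3 genes had at least 1 UMI in every such cell, and Psmb8 was found in 10 of 15 and Psmb10 in 2 of 15. These 15 cells were not alike: 4 had UMIs of Ddx4, another germ cell gene, and 4 had at least 3 of 6 spermatid genes. Both deep cells among them, with 18472 UMIs (9 of Ddx4) and 13685 UMIs (4 of Ddx4), had class I sums of 595 and 1315 CPM. The 6 cells with Dazl UMIs had a median of 12253.5 UMIs, and 5 of them carried no T or NK gene and 0 to 5 class I UMIs. The sixth, a Plzf lu/lu cell of plate 3 with 24187 UMIs, had 31 Dazl and 7 Ptprc UMIs, 8 T and NK genes, 16 H2-K1, 17 H2-D1 and 46 B2m UMIs, and 7 UMIs each of Psmb8 and Psmb10. No doublet caller was run on these plates, and whether this well or those of both deep cells held more than 1 cell was not tested.

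Markers of B cells (3 of 3) were at 0 in all 21 cells, and no cell of either genotype had 3 macrophage genes. Eomes itself, known in NK and CD8 T cells as well as in these spermatogonia, had a UMI in 4 of the 21 cells (19.0%), 2 of them among the 15 without Dazl and 2 among those with Dazl and no T or NK gene. Of the 1228 cells without Ptprc, 85 (6.92%) had one. The threshold of 1 UMI did not sort all such cells. The 7 cells with exactly 1 Ptprc UMI had a CPM of 171 for H2-K1, 145 for H2-D1, 329 for B2m and 13.2 for Psmb8. Just outside, 3 cells with no Ptprc UMI but at least 3 T and NK genes had 439, 110, 220 and 73.2 in that order.

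**Figure D2:**
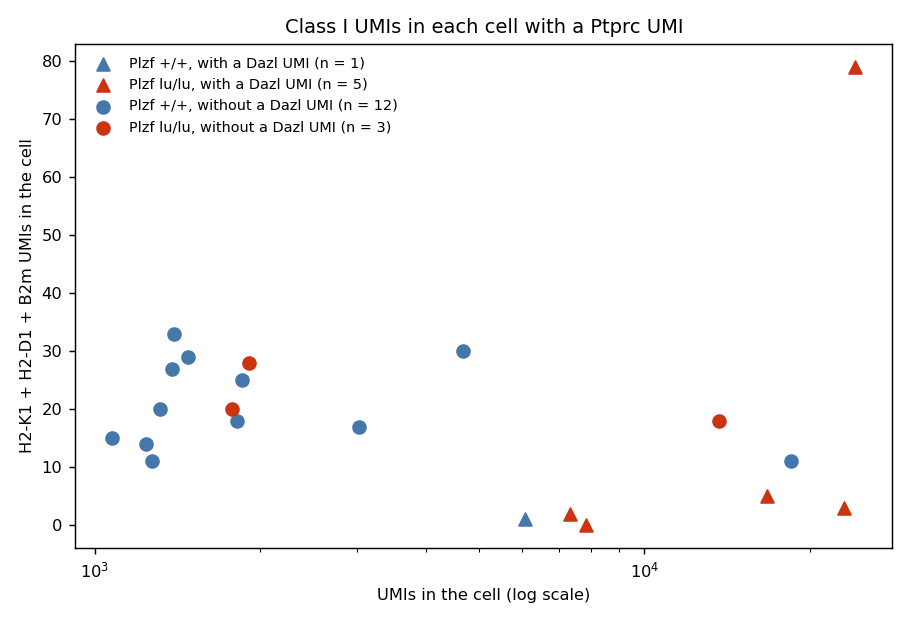
Summed UMIs of H2-K1, H2-D1 and B2m (y axis) against all UMIs of the cell (x axis, log scale) for each of the 21 cells with a Ptprc UMI, by genotype and Dazl. The 15 cells without Dazl hold 11 to 33 class I UMIs, most of them in shallow cells, and 5 of the 6 cells with Dazl hold 0 to 5.

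Between genotypes, the heavy chain genes were read first. H2-K1 stood at 24.4, 57.7 and 29.4 CPM in Plzf +/+ cells of plates 1, 2 and 4 and at 43.3 and 70.7 in Plzf lu/lu cells of plates 3 and 4 (37.2 ± 18.0, SD, n = 3, and 57.0 ± 19.4, n = 2), and the groups overlapped. H2-D1 stood at 15.5, 24.4 and 19.5 against 36.4 and 86.4 (19.8 ± 4.49 and 61.4 ± 35.4), with both Plzf lu/lu libraries above the other 3. B2m was nearly level among Plzf +/+ libraries, at 78.0, 83.9 and 80.3, and stood at 88.5 and 106 in Plzf lu/lu (80.7 ± 2.98 and 97.3 ± 12.4). On plate 4, the plate that both genotypes shared, H2-D1 had 39 UMIs (19.5, interval 13.8 to 26.6) in 277 Plzf +/+ cells and 22 UMIs (86.4, 54.2 to 131) in 38 Plzf lu/lu cells. Those 22 UMIs came from 6 cells, with up to 8 in 1 cell.

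Tap1 had 0, 3 and 0 UMIs in Plzf +/+ and 2 and 1 UMIs in Plzf lu/lu, too few to compare. A count of 0 allows up to 1.41 and 1.50 CPM in those libraries (3 UMIs of the total).

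Of the immunoproteasome genes, Psmb8 had 9, 16 and 2 UMIs (4.23, 6.74 and 0.997 CPM) against 20 and 3 (7.67 and 11.8), and the 3 UMIs of Plzf lu/lu plate 4 lay in its 1 cell with Ptprc. Psmb9 stood at 9.86, 14.3 and 9.48 against 11.5 and 31.4 and overlapped. Psmb10 stood at 102, 78.4 and 89.3 against 187 and 153 (90.0 ± 12.0 and 170 ± 24.2), and each Plzf lu/lu library lay above each Plzf +/+ library. On plate 4 its intervals were 76.7 to 103 and 109 to 209.

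**Figure D3:**
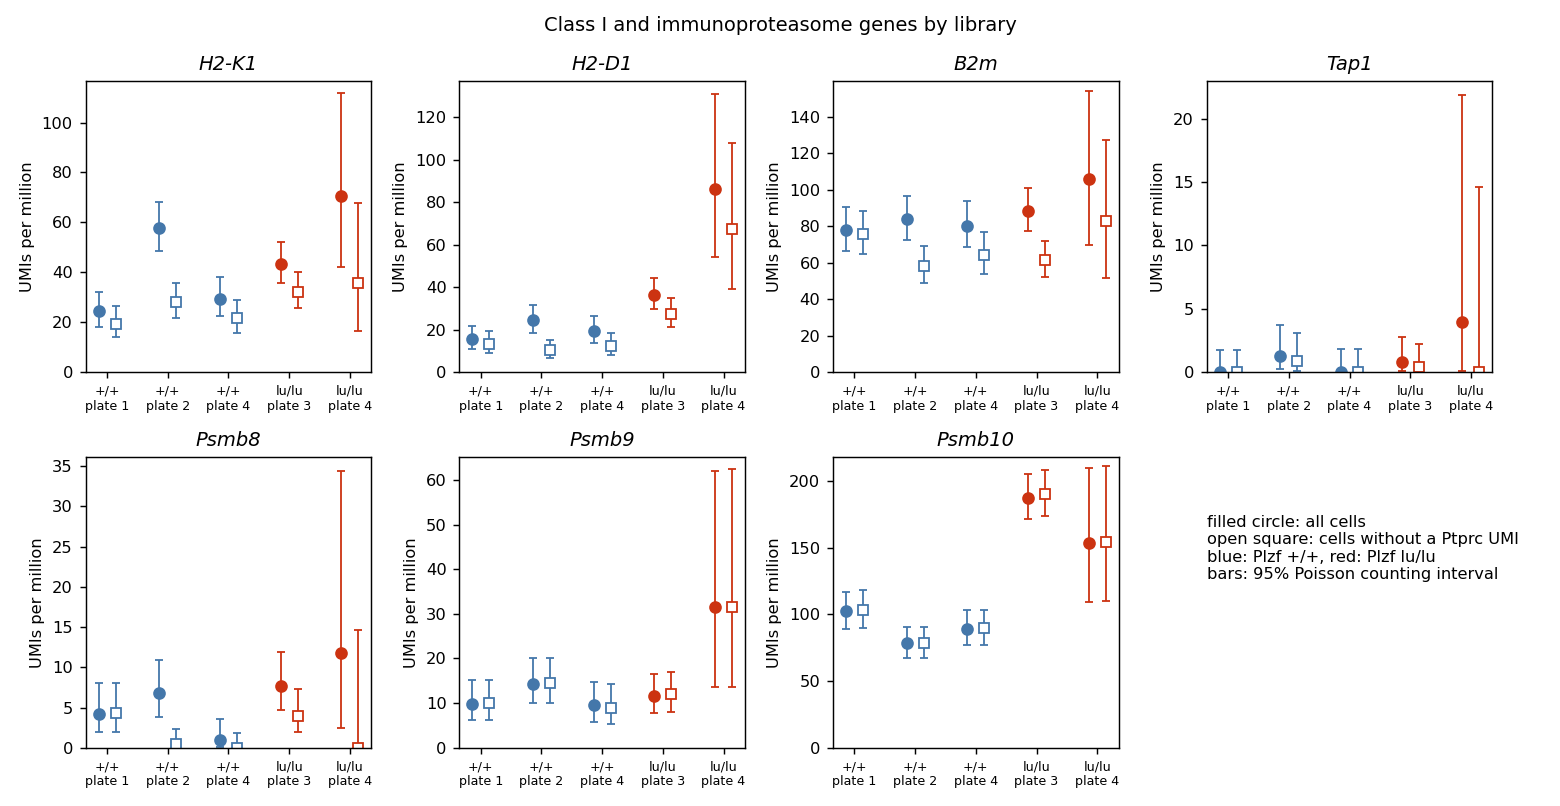
CPM (UMIs per 1000000, y axis, from 0) of H2-K1, H2-D1, B2m, Psmb8, Psmb9 and Psmb10 in the 3 Plzf +/+ and 2 Plzf lu/lu libraries, for all cells and for cells without a Ptprc UMI. Bars are exact 95% Poisson intervals; for Psmb10 both Plzf lu/lu libraries (187 and 153) lie above the Plzf +/+ libraries (78.4 to 102) in all cells.

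In edgeR's quasi-likelihood test over the 13728 genes tested, 112 genes (0.816%) passed an adjusted p (Benjamini-Hochberg) of 0.05, and none of the 6 genes tested here did; Tap1 did not pass the filter on low counts. Of all genes tested, 1943 had an unadjusted p under 0.05, and DESeq2 called 139. The log2 fold change of Psmb10 was 1.00 (SE 0.18, edgeR adjusted p = 0.0547) and that of H2-D1 was 1.48 (SE 0.39, adjusted p = 0.147). H2-K1 (0.54, SE 0.42), B2m (0.28, SE 0.17), Psmb8 (1.12, SE 0.72) and Psmb9 (0.61, SE 0.49) had edgeR adjusted p-values of 0.662, 0.526, 0.571 and 0.673. Both Plzf lu/lu libraries were above all Plzf +/+ libraries for H2-D1, B2m, Psmb8 and Psmb10, as for 16% of all genes tested.
The calls depended on single libraries, and also on other settings given below. Without the Plzf +/+ library of plate 1, 1387 genes passed, with Psmb10 (log2 fold change 1.13, edgeR adjusted p = 0.000719) and H2-D1 (1.09, adjusted p = 0.0428) among them. Without any of the other 4 libraries in turn, 1 to 6 genes passed, and neither gene was among them. The log2 fold change of H2-D1 was 0.93 when Plzf lu/lu plate 4 was left out and 2.14 when plate 3 was, while that of Psmb10 stayed between 0.78 and 1.13. With each library left out, Psmb9 ran from 0.085 to 1.50 and Psmb8 from 0.67 to 1.73. H2-K1 ran from 0.19 to 1.01 and B2m from 0.19 to 0.41.

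Without the 21 Ptprc cells the levels of H2-K1, H2-D1 and B2m fell in every library and those of Psmb10 hardly changed. The log2 fold change of H2-K1 was 0.54 with and without these cells. H2-K1 stood at 19.4, 28.1 and 21.5 CPM in Plzf +/+ and 32.2 and 35.6 in Plzf lu/lu, so that the groups no longer overlapped. H2-D1 stood at 13.3, 10.2 and 12.5 against 27.4 and 67.3. B2m stood at 75.8, 58.3 and 64.5 against 61.3 and 83.1, which overlapped. Psmb8 was left with 9, 1 and 0 UMIs against 10 and 0, and Psmb10 with 103, 78.3 and 89.4 against 190 and 154 CPM. The log2 fold changes were 0.54 for H2-K1 (SE 0.28, edgeR adjusted p = 0.477), 1.77 for H2-D1 (SE 0.42, adjusted p = 0.112) and 0.96 for Psmb10 (SE 0.20, adjusted p = 0.0725). For B2m it was 0.06 (SE 0.24, edgeR adjusted p = 0.989) and for Psmb9 0.63 (SE 0.50, adjusted p = 0.685). Psmb8 and Tap1 did not pass the filter on low counts. None of the 5 genes tested was called, against 96 of 13731 genes (0.699%), with 1801 genes at an unadjusted p under 0.05 and 133 called by DESeq2. H2-K1, H2-D1 and Psmb10 did not overlap, higher in Plzf lu/lu, as for 15.9% of all genes tested.

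H2-K1 also differed between cells with and without Sertoli cell genes. Among cells without Ptprc, the 129 cells with at least 3 Sertoli genes had a CPM of 68.6 for H2-K1 (interval 56.7 to 82.2), and the 1094 cells in no somatic or leukocyte class had 16.5 (13.7 to 19.7). H2-D1 stood at 25.8 and 15.95 in these cells, B2m at 52.7 and 68.2, Psmb9 at 2.93 and 14.2, and Psmb10 at 62.1 and 130. H2-K1 was thus higher, and Psmb9 and Psmb10 lower, in cells with Sertoli genes. All 132 cells of this class, those with Ptprc included, held 29.4% of the Plzf +/+ and 46.6% of the Plzf lu/lu UMIs of H2-K1, beside 17.4% and 21.1% of all UMIs. The same cells held 12.3% and 28.2% of the H2-D1 UMIs and 9.89% and 21.7% of the B2m UMIs, in that order.
When all 153 cells of a somatic or leukocyte class were left out, H2-K1 stood at 16.9, 21.6 and 11.1 against 17.1 and 4.78 CPM (1 UMI in the last), with a log2 fold change of -0.13 (SE 0.43, edgeR adjusted p = 0.932). B2m stood at 75.3, 64.8 and 72.7 against 61.2 and 71.7 (-0.13, edgeR adjusted p = 0.782). H2-D1 remained separate, at 12.3, 10.8 and 11.7 against 24.9 and 43.0 (1.37, SE 0.36, edgeR adjusted p = 0.0423), and so did Psmb10, at 105, 92.0 and 99.9 against 211 and 167 (1.02, SE 0.16, edgeR adjusted p = 0.00252). In these cells 16.6% of all genes tested were apart and higher, and 669 of 12650 genes (5.29%) were called, so that a call was more common there than over all cells. The last Plzf lu/lu library then held 31 cells and 9 H2-D1 UMIs.

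Psmb10 was also read by cells with and without Gfra1, the GDNF receptor subunit of the most primitive spermatogonia. The share of cells with a Gfra1 UMI was 64.7%, 66.0% and 58.1% in Plzf +/+ and 37.9% and 39.5% in Plzf lu/lu, so the genotypes differed in their mix of these cells. In cells with Gfra1, Psmb10 stood at 92.1, 60.1 and 81.9 CPM against 189 and 200.2, and it had a UMI in 37.6%, 34.5% and 35.4% of the cells against 73.9% and 60%. The groups did not overlap. These shares were not thinned to equal depth. The last comes from the few Gfra1 cells among the 38 Plzf lu/lu cells of plate 4. In cells without Gfra1 it stood at 126, 145 and 103 against 186 and 108, and the groups overlapped. The log2 fold change was 1.25 (SE 0.22, edgeR adjusted p = 0.0865) with Gfra1, where 11 of 12430 genes (0.0885%) were called, and 0.39 (SE 0.23, edgeR adjusted p = 0.602) without, where 48 of 9827 genes (0.488%) were called. The difference between these effects was not tested. Of all genes tested in cells with Gfra1, 17.2% were apart and higher in Plzf lu/lu. Among them, and not called, Psmb7 had a mean of 219 against 271 CPM, Psmb5 338 against 455, Psmb6 619 against 746 and B2m 66.4 against 90.0 (46 of its 118 UMIs on plate 3 lay in 1 cell). Psme1, a subunit of a proteasome activator, had a UMI in 64.0% against 80.4% of these cells on average, and the groups overlapped for Psme2 (206 against 221 CPM). In cells without Gfra1, Psmb7 was apart and lower in Plzf lu/lu (233 against 189.5 CPM), while Psmb9 (6.95 against 25.7) and Psmb6 (687 against 756) were apart and higher. Psmb9 had only 13 against 22 UMIs in these cells. Of the 9827 genes tested in them, 1284 were apart and higher and 1767 apart and lower. B2m had a mean of 124 against 104 there, Psme1 of 226 against 201 and Psmb5 of 375 against 373. The CPM of H2-D1 overlapped between genotypes in both sets of cells. With Gfra1 its mean was 13.0 against 20.0 (log2 fold change 0.95, SE 0.46, edgeR adjusted p = 0.430). Without Gfra1 its mean was 40.6 against 101 (0.99, SE 0.94, edgeR adjusted p = 0.788).

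**Figure D4:**
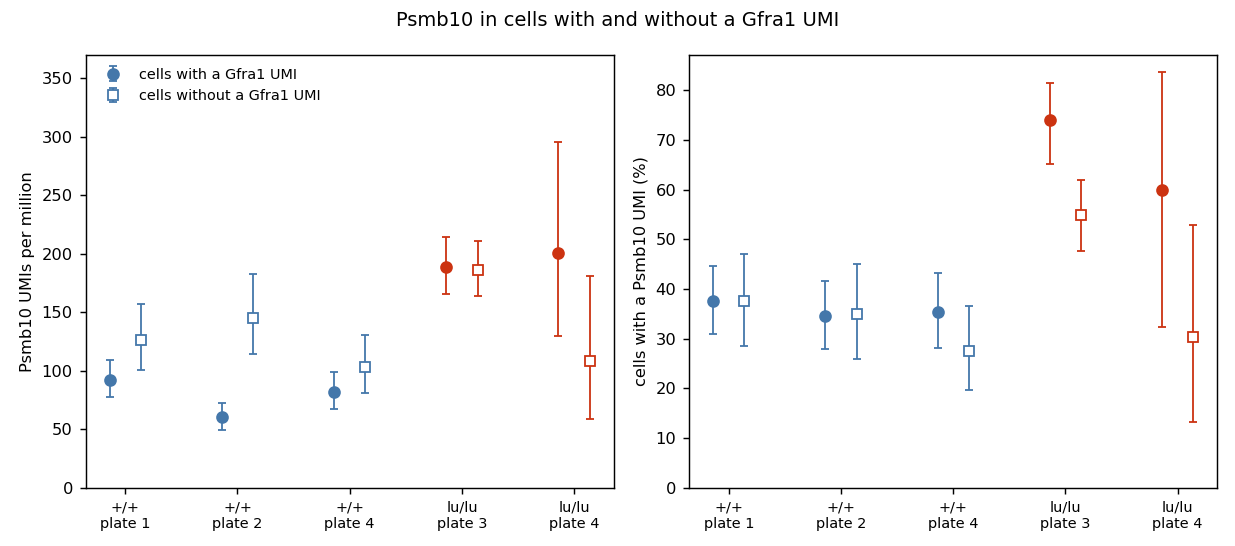
Psmb10 in cells with and without a Gfra1 UMI, by library, as CPM with exact 95% Poisson intervals and as the share of cells with a UMI with exact 95% binomial intervals. With Gfra1 the Plzf lu/lu libraries (189 and 200.2 CPM) lie above the Plzf +/+ libraries (60.1 to 92.1); without Gfra1 the groups overlap.

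Over all cells, Psmb10 had a UMI in 37.5%, 34.7% and 32.1% of the Plzf +/+ cells and in 62.1% and 42.1% of the Plzf lu/lu cells. With each cell thinned to 2000 UMIs (1167 cells kept) the shares were 17.3%, 15.6% and 15.5% against 29.3% and 13.8% (4 of 29 cells, interval 3.89% to 31.7%), so that only the plate 3 library remained above Plzf +/+. In the fit on the summed UMIs of the same thinned cells Psmb10 was called (log2 fold change 1.00, SE 0.22, edgeR adjusted p = 0.00834) and its groups did not overlap. In that fit 4.11% of 8905 genes were called, and 1175 of the 8905 were apart and higher. Among the genes tested over all cells, 15.7% had higher shares in both Plzf lu/lu libraries unthinned and 12.3% at 2000 UMIs. The share of cells with H2-D1 went from 8.52%, 9.24% and 8.66% against 15.9% and 15.8% to 0.977%, 1.81% and 3.59% against 5.26% and 3.45%, where the last is 1 cell of 29. The share of cells with B2m was level, at 35.0%, 34.7% and 33.6% against 34.4% and 31.6%, unthinned.

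The immunoproteasome genes were then set against the constitutive subunits they replace, a ratio that does not depend on library scaling. Psmb8, Psmb9 and Psmb10 together made up 8.26%, 7.58% and 8.13% of the UMIs of the 6 genes in Plzf +/+ and 13.3% and 12.0% in Plzf lu/lu. The mean log2 ratio was 0.74 higher in Plzf lu/lu and 0.72 higher without Ptprc cells, given as a description. Of the 3 pairs, the groups did not overlap for Psmb10 with Psmb7 only: the share of Psmb10 in the pair was 29.5%, 26.9% and 29.8% against 46.6% and 38.6%, with Psmb7 at a log2 fold change of 0.08 (SE 0.15). The share of Psmb8 with Psmb5 was 1.14%, 1.88% and 0.302% against 1.83% and 2.75%, and that of Psmb9 with Psmb6 was 1.42%, 2.16% and 1.59% against 1.56% and 3.88%, both overlapping.

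**Figure D5:**
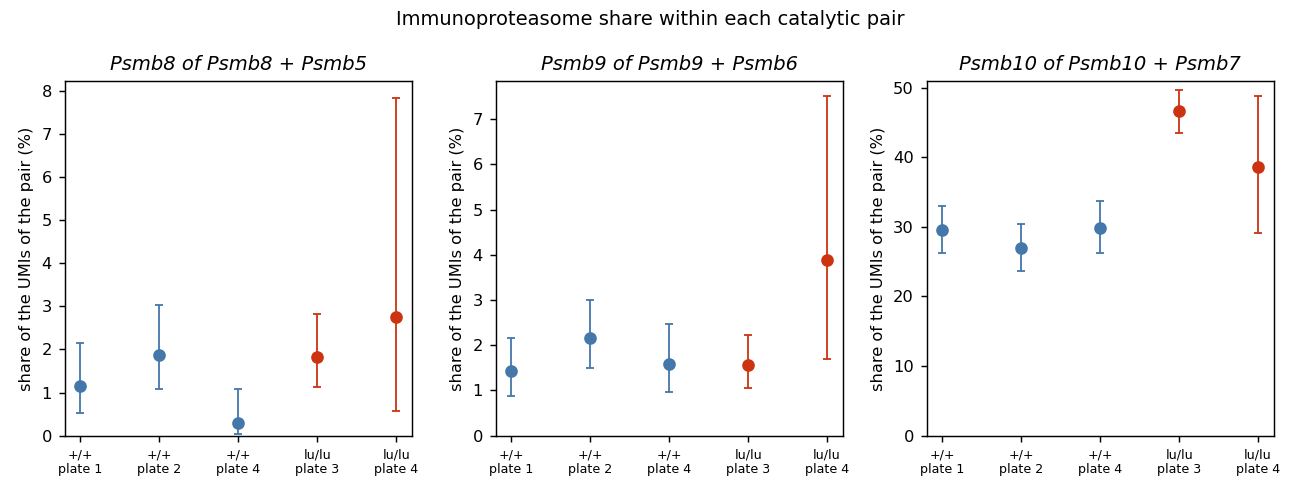
Share (percent, from 0) of the immunoproteasome subunit in the UMIs of each catalytic pair, by library, with exact 95% binomial intervals. Psmb10 makes up 26.9% to 29.8% of its pair in Plzf +/+ and 46.6% and 38.6% in Plzf lu/lu; the other pairs overlap between genotypes.

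Other genes of the pathway were counted by list, beside a median log2 fold change of 0.00350 over all genes tested, of which 6908 of 13728 lay above 0 and 0.816% were called. Of the 3 constitutive catalytic subunits, 3 were tested and none was called (median 0.28), with Psmb6 at 683, 649 and 587 against 724 and 778 CPM and Psmb5 at 366, 352 and 330 against 410 and 416. Of 18 other 20S subunits, activators and the assembly factor Pomp, 17 were tested and none called, 16 lay above 0, 10 were apart and higher (16% of all genes tested were) and the median was 0.36. The most abundant were Psmb1 (0.04, edgeR adjusted p = 0.987) and Psma7 (0.46, adjusted p = 0.250). Of 7 genes for class I loading, 6 were tested and none called (median 0.18), among them Calr (0.08), the chaperone calreticulin, and Pdia3 (-0.10), its partner in folding.
Of 19 other class I genes, 5 were tested and none called (median 0.43). The most abundant were H2-M3, at 25.4, 16.02 and 19.0 against 24.1 and 31.4, and H2-Q7, at 14.6, 16.02 and 4.49 against 18.4 and 15.7. H2-Q2, picked after its values were seen, stood at 6.10, 4.64 and 4.49 against 22.2 and 15.7 (2.04, SE 0.39, edgeR adjusted p = 0.0597). In the stretch of chromosome 17 from H2-K1 to H2-D1, 40 other genes were tested, none was called, 26 lay above 0 and the median was 0.16. Class II genes were near 0: of 11 listed only H2-DMa was tested (-1.11, edgeR adjusted p = 0.540), and H2-Ab1 had 29 UMIs in all.

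Of 18 genes of interferon and NF-kB signalling, 17 were tested and none called, 8 lay above 0 and the median was -0.02. Among them 6 were apart and lower and 1 apart and higher, beside 2538 and 2198 of all 13728 genes tested. Jak1, the kinase of interferon receptors, stood at 255, 209 and 194 against 114 and 138 (-0.79, SE 0.18, edgeR adjusted p = 0.0990), and Irf1, a factor that induces class I genes, at 77.5, 52.7 and 61.8 against 65.2 and 90.4.
Of 20 interferon-induced genes, 10 were tested and 1 was called (0.816% of all genes tested were), 7 lay above 0 and the median was 0.56 (0.66 without Ptprc cells). Among the 10 tested, 4 were apart and higher and 3 apart and lower, beside 2198 and 2538 of all 13728 genes tested. Ifi27, an interferon-inducible gene, rose from 53.1, 51.4 and 52.9 to 116 and 141 (1.31, SE 0.17, edgeR adjusted p = 0.0204, and adjusted p = 0.0234 without Ptprc cells). Bst2, which encodes the antiviral protein tetherin and was picked after its values were seen, stood at 23.5, 23.6 and 23.9 against 6.90 and 3.93 (-1.82, SE 0.36, edgeR adjusted p = 0.0632).

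Across the 1249 cells, H2-K1 went with H2-D1 (Pearson's r = 0.64), Psmb8 (0.60) and B2m (0.45), and Psmb10 with none of them (-0.05 with H2-K1 and -0.00 with H2-D1). Without the 21 Ptprc cells r was 0.23 for H2-K1 with H2-D1, 0.13 with Psmb8 and 0.05 with B2m. The cells share library and depth, so these values are a description. Among 11289 genes the closest to the sum of the 7 genes were Shisa5 (r = 0.34), Ly6e (0.32), H2-Q7 (0.31), S100a6 (0.31) and Tmsb4x (0.31) over all cells. Without Ptprc cells they were Psme1 (0.25) and Psme2 (0.22), the subunits of the PA28 proteasome activator, with Uchl1 (0.23), Gm15536 (0.23) and Mif (0.22) over 1228 cells. Psmb10 alone was closest to Uchl1 (0.32), a ubiquitin hydrolase of spermatogonia, and Psme1 (0.28) over all cells.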

How the data were processed

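The authors sorted single tdTOMATO+ cells into 384-well plates, sequenced 3′ ends and deposited 1 table of raw UMI counts per genotype, without normalization. The submitters' processing notes name bcl2fastq 2.18.0.12, Picard 2.9.3, STAR 2.5.4a and GRCm38; the counting tool and cell filter are not given in the sources used here. Cells were assigned to 5 libraries by plate and, on plate 4, by table, since 5 Plzf +/+ cells lie outside their labelled wells. Well barcodes mark positions and recur on every plate (225 to 271 shared between 2 of the 4 larger libraries); the 2 libraries of plate 4 shared 0. The members and gene lists were chosen with earlier results of these data known. UMIs were summed per library and tested with edgeR 4.0.16 in R 4.3.3 (filterByExpr, TMM, glmQLFit and glmQLFTest, robust), with Benjamini-Hochberg adjustment at 0.05; the procedure was tested on simulated data. DESeq2 1.42.0, RLE scaling, no filter, thinned cells (seed 1) and leaving out libraries or cells were alternatives. A class needed 3 marker genes with a UMI; no doublet caller was run. Named genes were the 8 members, the called genes of each list or, where none was called, the 2 with most UMIs, and the 5 genes closest by r of log2(UMIs per 10000 + 1), among genes with a UMI in at least 5% of cells. Genes named outside this rule are marked as such. Proteasome ratios were computed in Python 3.11.15 as a description; 3 against 2 libraries allow no exact p below 0.1. The split by Gfra1 and leaving out cells with 3 T and NK or pan-leukocyte genes were chosen after seeing the data. Promoters came from RefSeq (GRCm38.p6).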

Additional observations from a re-analysis of the deposited data

How the results depend on the processing

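The count of genes called over all cells (112) moved to 583 with no filter on low counts, 671 without the deepest cells (over 4 times the median UMIs), 366 with cells thinned to 2000 UMIs, 669 without somatic and leukocyte classes, 11 with and 48 without Gfra1, and 1 to 1387 with each library left out. Without Ptprc cells the count (96) moved to 621 with no filter, 603 without the deepest cells, 370 when thinned and 1 to 1441 with each library left out. Psmb10 was called over all cells under 5 of 15 alternatives and H2-D1 under 3 of 15, and both stayed above 0 in all 15. Changes of sign, none of them called, were seen for H2-K1 (-0.13 without somatic and leukocyte classes, -0.10 without Gfra1), B2m (-0.13 and -0.32 under the same settings, and without Ptprc cells -0.012 without the deepest cells and -0.058 to 0.35 with each library left out), Psmb8 (-0.53 without Gfra1) and Psmb9 (-0.051 with Gfra1). The cause was not tested. Member genes whose shares of cells did not overlap and were higher in Plzf lu/lu fell from 2 (H2-D1 and Psmb10) to 0 when thinned to 2000 UMIs, where B2m was apart and lower, and to 1 (Psmb9) at 1000 UMIs, beside 15.7%, 12.3% and 10.5% of all genes tested. These percentages count genes higher in Plzf lu/lu, and the share apart and lower was not computed for this measure. The summed level of H2-K1, H2-D1 and B2m in Ptprc cells, 2869 CPM, was 5444 with at least 2 Ptprc UMIs and 2235 in cells with 3 pan-leukocyte genes. Of the 5 genes closest to the sum, rank correlation shared 0 and thinned cells 3 over all cells, and thinned cells shared 1 without Ptprc cells. The proteasome log2 ratio ran from 0.65 to 0.82 over all cells with each library left out. No paired analysis was possible because the replicate numbers name plates, not animals or litters, and plate and genotype together leave no residual degrees of freedom. The 38 Plzf lu/lu cells of plate 4 (the smallest library, where 3 UMIs equal a CPM of 11.8) limit every value of that library.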
